A study of Mus musculus with 4 samples.

Results

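Lipg, which encodes endothelial lipase, and 9 further genes of lipid uptake, breakdown and efflux were followed in MDSCs cultured with or without EGCG. The 10 genes were taken by symbol from the 53465 genes counted. They cover lipases and a lipid transfer protein (Lipg, Lpl, Lipa and Pltp), scavenger receptors (Cd36 and Msr1) and cholesterol efflux (Abca1, Abcg1, Apoe and Nr1h3). The list was chosen by the lower counts of Lipg in the EGCG treatment group, so the fall of Lipg is described here without a test. MDSCs, immature myeloid cells that expand in hosts with tumors, were isolated with beads against Gr-1 from spleens of male BALB/c mice, 6 weeks old at injection, that carried tumors of the 4T1 mammary carcinoma line. The sample labels put the sacrifice at day 21, and the methods put it 2 weeks after the 4T1 injection. Cells of the control group were kept in plain medium for 6 h, and cells of the EGCG group in medium that held EGCG, a green tea catechin, at 5 μg/mL. Each group had 2 libraries, with 17767318 to 18390385 counted reads per library. No source used here says whether they came from different mice or wells, so p-values measure only the spread between these libraries, which may be technical.

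Endothelial lipase and lipoprotein lipase split lipids carried by lipoproteins outside the cell, whereas lysosomal acid lipase, the product of Lipa, splits cholesteryl esters and triglycerides taken up into lysosomes. CD36 binds fatty acids and oxidized lipoproteins, and the class A scavenger receptor encoded by Msr1 takes up modified lipoproteins. ABCA1 and ABCG1 pass cholesterol out of the cell to apolipoproteins and to HDL, and Nr1h3 encodes LXRα, a nuclear receptor that is activated by oxysterols. In macrophages Abca1, Abcg1, Apoe, Pltp and Lpl are known targets of LXR.

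The 250 bases before the transcription start are shown for Abca1 and Pltp, both known LXR targets, since the groups did not overlap in the counts of Abca1 and overlapped in those of Pltp. They come from RefSeq on GRCm38.p6, whose table held entries for 6 of the 10 genes. Both lie on the minus strand and are written 5′ to 3′ along the gene, that of Abca1 from chr4:53159896-53160145 and that of Pltp from chr2:164857709-164857958. Capitals mark the GC box of Sp1 and KLF factors (GGGCGG), the TATA box (TATAAA), an E-box of basic helix-loop-helix factors (CACGTG) and the core of a PU.1 site (GAGGAA), all searched on both strands. They also mark a direct repeat of the nuclear receptor half-site, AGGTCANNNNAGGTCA, with at most 3 mismatches in the half-sites. In these windows no 2 marked motifs overlap.
Abca1: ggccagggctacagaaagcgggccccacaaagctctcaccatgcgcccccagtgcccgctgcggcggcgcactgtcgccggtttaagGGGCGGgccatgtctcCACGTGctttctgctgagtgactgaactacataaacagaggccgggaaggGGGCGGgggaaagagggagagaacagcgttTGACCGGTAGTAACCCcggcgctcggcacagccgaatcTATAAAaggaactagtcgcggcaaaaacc
Pltp: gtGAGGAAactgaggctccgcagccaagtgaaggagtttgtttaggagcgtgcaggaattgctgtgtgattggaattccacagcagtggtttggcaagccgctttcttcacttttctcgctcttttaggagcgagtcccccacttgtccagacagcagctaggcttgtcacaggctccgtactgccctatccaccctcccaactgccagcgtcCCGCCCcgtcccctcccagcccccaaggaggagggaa
The Abca1 window held 2 GC boxes, 1 TATA box, 1 E-box and the word TGACCGGTAGTAACCC, a direct repeat on the other strand with 3 mismatches, whose outer edge is 67 bases before the start. The Pltp window held 1 GC box and 1 PU.1 core, and no such repeat. Of the 32851 windows of this length in the table, 32.7% held a GC box, 12.4% the TATA box, 6.02% the E-box, 23.3% the PU.1 core and 18.5% a repeat with at most 3 mismatches. These matches are descriptions of the letters and not binding sites measured in MDSCs.

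Expression levels are given as CPM, read counts divided by the TMM-scaled size of the library. All 10 genes had enough counts to be tested, with 181 to 9713 reads per gene and library. The groups were compared in edgeR (quasi-likelihood test), and p-values were adjusted by Benjamini-Hochberg across all 14682 genes tested, with a threshold of 0.05. Over all tested genes, 0.136% were called lower and 0.0136% higher in the EGCG treatment group. Of the 9 genes other than Lipg, none was called lower or higher, either by edgeR or by DESeq2. At an unadjusted p under 0.05 in edgeR, 3 were lower and 0 higher, beside 7.02% and 5.22% of all tested genes. All 9 fold changes were below 0, as for 49.4% of the tested genes, with a median log2 fold change of -0.24 beside 0.0031 over all tested genes. Single libraries decided this count of 9, which dropped to 5 when control replicate 1 was omitted and to 4 when EGCG replicate 1 was omitted. The median moved with it, to -0.011 without control replicate 1, 0.0046 without EGCG replicate 1 and -0.37 without control replicate 2.

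Levels per exonic length (RPKM, from the same scaled counts) set the order of the genes. Apoe, the apolipoprotein that macrophages secrete with cholesterol, stood highest at 184.5 to 248.8 RPKM over the 4 libraries, and Lipa followed at 35.5 to 41.0 RPKM. These ranges do not overlap each other or those of the other genes. Abcg1 (11.9 to 15.1 RPKM), Cd36 (10.7 to 16.8 RPKM) and Msr1 (9.25 to 11.9 RPKM) came next, each overlapping its neighbor. Abca1 was at 6.48 to 8.84 RPKM and Lipg at 4.80 to 7.67 RPKM. At the low end were Nr1h3 with 4.17 to 6.84 RPKM, Pltp with 3.90 to 6.80 RPKM and Lpl with 2.87 to 5.81 RPKM. From Abca1 down to Lpl, each range overlaps that of its neighbor in this order.

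**Figure D1:**
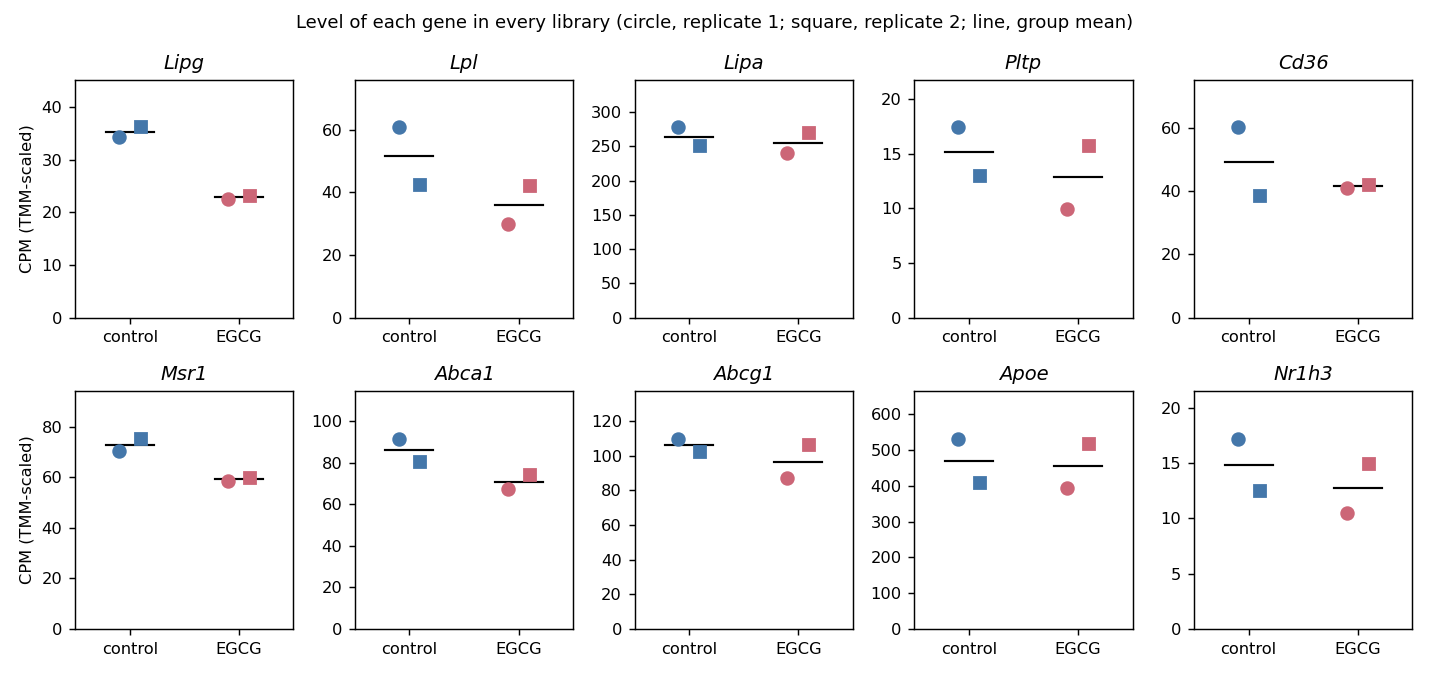
CPM (TMM-scaled, linear axes from 0) of the 10 genes in each library, with circles for replicate 1, squares for replicate 2 and lines for the group means. Lipg separates the groups with little spread, from 34.3 and 36.2 CPM in control to 22.6 and 23.1 CPM with EGCG, whereas the replicates of Lpl, Pltp, Cd36, Apoe and Nr1h3 lie far apart in at least 1 group.

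The lipase genes held both the largest fold changes and 1 of the smallest. Lipg (ENSMUSG00000053846), on chromosome 18 of GRCm38 from 74939322 to 74961263, had 626 and 646 reads in control replicates 1 and 2 and 410 and 413 reads in EGCG replicates 1 and 2. In CPM this was 34.3 and 36.2 in the control group and 22.6 and 23.1 in the EGCG group. The means were 35.2 ± 1.32 CPM (SD, n = 2) and 22.9 ± 0.361 CPM (SD, n = 2), a fall by 35.1%. Its log2 fold change was -0.62. The paper lists Lipg among genes lower with EGCG by RNA-seq, but not among those whose qRT-PCR change matched. None of the 31-base words in Lipg transcripts occurs in transcripts of another gene, whereas 13.9% of those of Pltp, 3.97% of those of Lpl and 1.52% of those of Abcg1 do, with at most 0.205% for the remaining genes.
Lpl (ENSMUSG00000015568), on chromosome 8 from 68880491 to 68907448, encodes lipoprotein lipase, which frees fatty acids from the triglycerides of lipoproteins. It was at 60.8 and 42.3 CPM in the control libraries and 30.1 and 42.2 CPM in the EGCG libraries. Control replicate 2 and EGCG replicate 2 were thus nearly level, although the groups do not overlap. The log2 fold change was -0.51 (standard error 0.16, adjusted p of 0.228 by edgeR's quasi-likelihood test). Between the control libraries the log2 difference was 0.52, as large as the fold change. Without EGCG replicate 2 the log2 fold change was -0.78 (adjusted p of 3.12e-06 by edgeR), without control replicate 2 it was -0.75 (0.000182), and without control replicate 1 it was -0.22 (0.848). The call for Lpl therefore rests on which library is used.
Lipa (ENSMUSG00000024781), on chromosome 19 from 34492318 to 34527474, was at 277.9 and 250.5 CPM in the control libraries and at 241.0 and 269.0 CPM in the EGCG libraries. The groups overlap, and the log2 fold change was -0.05 with a 95% interval from -0.23 to 0.13.
Pltp (ENSMUSG00000017754), on chromosome 2 from 164839518 to 164857711, encodes the phospholipid transfer protein of plasma lipoproteins. It had 17.4 and 12.98 CPM in the control libraries against 9.98 and 15.7 CPM in the EGCG libraries, so that the EGCG libraries enclose control replicate 2. Its log2 fold change was -0.24 (standard error 0.19, adjusted p of 0.655 by edgeR), which became -0.61 (adjusted p of 0.0377) without EGCG replicate 2 and 0.05 without EGCG replicate 1. Of its exonic bases 19.3% are shared with Ctsa on the opposite strand, a gene with 6192 to 6904 reads per library, and the counting ignored strand, so the counts of Pltp are uncertain.

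Among the scavenger receptors, Msr1 separated the groups and Cd36 did not. Msr1 (ENSMUSG00000025044), on chromosome 8 from 39581685 to 39642673, was at 70.5 and 75.4 CPM in the control libraries and at 58.7 and 59.7 CPM in the EGCG libraries. Both EGCG libraries lay below both control libraries, and the replicates of each group were close. The log2 fold change of Msr1 was -0.30 (standard error 0.08, adjusted p of 0.162 by edgeR), with a range from -0.34 to -0.25 when a library was left out and an adjusted p of 0.174 to 0.302 in these fits.
Cd36 (ENSMUSG00000002944), on chromosome 5 from 17781690 to 17888801, had 60.2 CPM in control replicate 1 but 38.4 CPM in control replicate 2, below both EGCG libraries (41.1 and 42.1 CPM). The higher mean of the control group came from control replicate 1 alone. The log2 fold change was -0.25 (standard error 0.15, adjusted p of 0.549 by edgeR). Without control replicate 1 it was 0.12, and without control replicate 2 it was -0.53 (adjusted p of 0.00253 by edgeR).

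Of the efflux genes, Abca1 alone had both EGCG libraries below both control libraries. Abca1 (ENSMUSG00000015243), on chromosome 4 from 53030787 to 53159895, was at 91.6 and 80.5 CPM in the control libraries and at 67.1 and 73.9 CPM in the EGCG libraries. Replicate 1 of each group marked the extremes. Abca1 had a fold change of -0.29 in log2 (standard error 0.09, adjusted p of 0.223 by edgeR), and it was called only without control replicate 2 (-0.37, adjusted p of 0.0335). Without control replicate 1 it was -0.19 (adjusted p of 0.837). Abca1 has 10363 exonic bases, and fold changes fell with exonic length over the tested genes (Spearman's rho of -0.285, computed over genes and not over replicates). With the length correction its log2 fold change was -0.16. The same correction gave -0.39 for Lpl, which has 10478 exonic bases, and -0.24 for Msr1 (adjusted p of 0.349 by edgeR).
Abcg1 (ENSMUSG00000024030), on chromosome 17 from 31057675 to 31117988, was at 109.8 and 102.1 CPM in the control libraries and at 86.9 and 106.1 CPM in the EGCG libraries. Only EGCG replicate 1 was below the rest, and the log2 fold change was -0.13 with a 95% interval from -0.34 to 0.07. With the length correction it was -0.053.
Apoe (ENSMUSG00000002985), on chromosome 7 from 19696109 to 19699188, was at 531.9 and 408.2 CPM in the control libraries and at 394.4 and 517.5 CPM in the EGCG libraries. Each group had a high and a low library, and the log2 fold change of -0.04 (95% interval from -0.31 to 0.23) was far smaller than the log2 difference of 0.38 between the control libraries and of -0.39 between EGCG replicates 1 and 2.
Nr1h3 (ENSMUSG00000002108), on chromosome 2 from 91184061 to 91202834, was at 17.2 and 12.5 CPM in the control libraries and at 10.5 and 14.9 CPM in the EGCG libraries. The groups overlap, and the log2 fold change was -0.22 with a 95% interval from -0.61 to 0.16. None of Lipa, Abcg1, Apoe and Nr1h3 passed the test, with adjusted p values of 0.608 to 0.926 by edgeR.

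**Figure D2:**
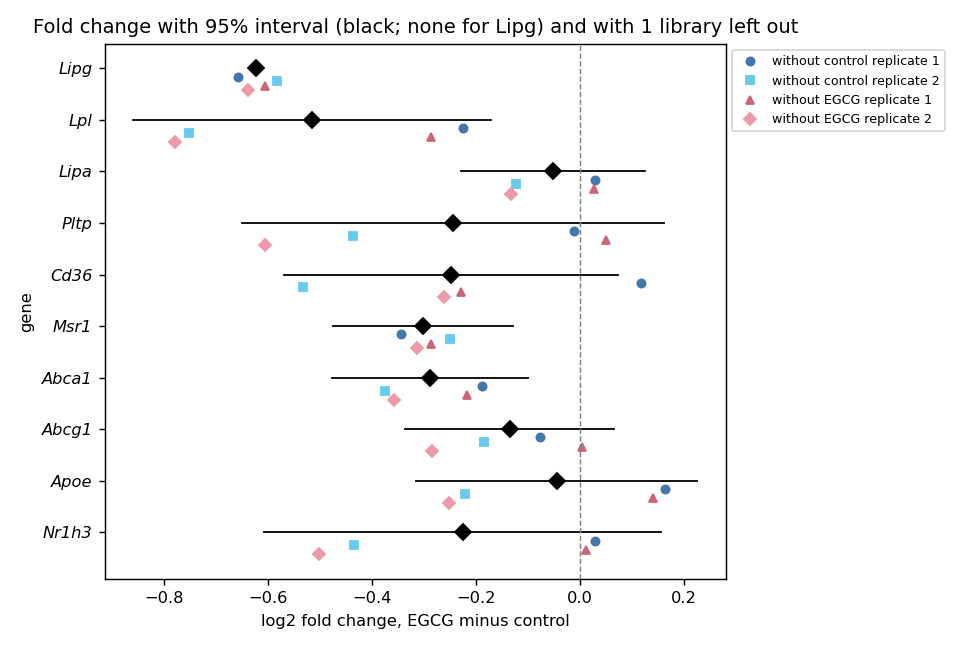
Log2 fold change (EGCG minus control) of each gene from all 4 libraries, as black diamonds with 95% intervals (none for Lipg, for which no test is given), and with 1 library left out, as colored symbols. The symbols of Msr1 stay between -0.34 and -0.25, whereas Lipa, Pltp, Cd36, Abcg1, Apoe and Nr1h3 reach 0 or above in at least 1 fit.

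Both EGCG libraries lay below both control libraries for 4 of the 10 genes (Lipg, Lpl, Msr1 and Abca1), as they did for 21.2% of the tested genes, and for none were both above, as for 21.5%. Lipg is among the 4 by the choice of the list, which leaves 3 of the 9 others. These 3 genes also had an unadjusted p under 0.05 in the lower direction, as 7.02% of the tested genes did, and 0 of the 10 were higher at that p, beside 5.22%. In 7 of the 10 genes a difference within a group was larger than the fold change between the groups.
The genes differed in their patterns over the libraries. Lipg and Msr1 were level within each group, with control replicate 2 slightly above control replicate 1. For 7 genes (Lpl, Lipa, Pltp, Abca1, Abcg1, Apoe and Nr1h3) control replicate 1 was the highest library and EGCG replicate 1 the lowest, which held for 11.3% of the tested genes. Among these, Lipa, Pltp, Abcg1, Apoe and Nr1h3 were higher in EGCG replicate 2 than in control replicate 2. Over all genes compared, control replicate 1 and EGCG replicate 1 also differed most, with a chi-square per gene of 16. It was 6.85 between the control libraries and 6.64 between the EGCG libraries. Control replicate 2 was at 6.7 from EGCG replicate 2 and 7.57 from EGCG replicate 1, and control replicate 1 at 12.4 from EGCG replicate 2. In Cd36 control replicate 1 was again the highest, but control replicate 2 the lowest. Relative to the gene's mean in log2 CPM, Lpl ran from 0.52 in control replicate 1 to -0.50 in EGCG replicate 1, Pltp from 0.34 to -0.46 and Nr1h3 from 0.34 to -0.37.

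**Figure D3:**
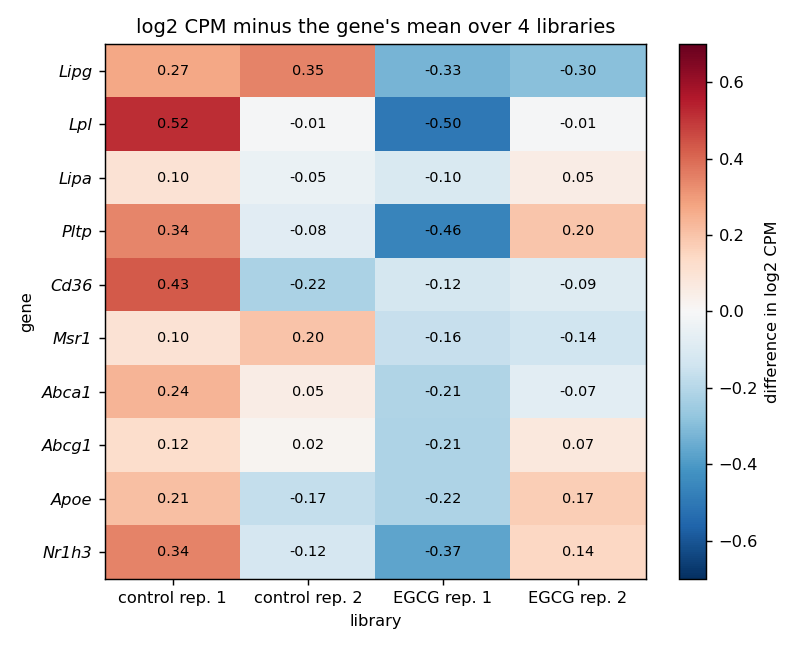
Difference of each gene's log2 CPM from its own mean over the 4 libraries, with genes in rows, libraries in columns, and red for values above and blue for values below the mean. Lipg and Msr1 are red in both control libraries and blue in both EGCG libraries, whereas Pltp, Apoe and Nr1h3 are red in control replicate 1 and EGCG replicate 2.

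By the distance between centred log2 CPM profiles over the 4 libraries, the genes closest to Lipg were Ikzf4 (0.03), AC129085.3 (0.04), Col5a3 (0.06), Amn (0.06) and Plvap (0.07). All 5 had lower counts than Lipg, from 13 to 22 reads for Ikzf4 up to 102 to 170 reads for Plvap. Plvap, which encodes a protein of endothelial diaphragms, was at 8.43 and 9.51 CPM in the control libraries and at 5.63 and 5.82 CPM in the EGCG libraries. Likeness over 4 libraries is a description, and many profiles are alike over so few points. The lower values of these 5 genes with EGCG, Plvap included, follow from their choice by likeness to Lipg.

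Marker lists of the cells that such a preparation can hold were set beside these genes. In bulk RNA, fewer cells of a type and less RNA per cell cannot be told apart. The labelled cell type was checked first: the neutrophil markers Ly6g, Camp, Ltf and S100a9 and the monocyte markers Ly6c2 and Ccr2 had at least 1997 reads in every library, whereas the monocyte markers Cx3cr1 (129 to 170 reads) and Ms4a4c (309 to 358 reads) had few, and the 6 adipocyte or fibroblast markers had a median count under 10. Of the 10 endothelial markers, 9 could be tested and all 9 had a log2 fold change below 0 (median -0.56), beside 49.4% of all tested genes. Both EGCG libraries were below both control libraries for 8, beside 21.2%. Neither edgeR nor DESeq2 called any of them, and 6 were lower at an unadjusted p under 0.05 in edgeR, beside 7.02%. Their summed level was 138.6 and 151.3 CPM in the control libraries and 111.2 and 118.2 CPM in the EGCG libraries, most of it Pecam1, which leukocytes also express. Without Pecam1 it was 38.6 and 40.3 CPM against 23.9 and 29.2 CPM, and Emcn was at 0 to 5 reads. Cdh5, the endothelial cadherin, had 126 and 114 reads in the control libraries and 59 and 72 reads in the EGCG libraries, well below the counts of Lipg. Their part in the fall of Lipg was not tested.
Of the 10 splenic macrophage markers, 8 were below 0 (median -0.25), beside 49.4% of all tested genes, and neither edgeR nor DESeq2 called any. At an unadjusted p under 0.05 in edgeR, 4 of the 10 were lower and 1 was higher, beside 7.02% and 5.22%. Their summed level was 957 to 1021 CPM in the control libraries and 977 to 1036 CPM in the EGCG libraries. Most of this was the iron exporter gene Slc40a1, and without it the sums were 395.4 and 396.4 CPM against 308.4 and 339.9 CPM. None of these markers was at 0. In 7 of the 10 (Vcam1, Spic, C1qa, C1qb, C1qc, Mertk and Axl), control replicate 1 was the highest library and EGCG replicate 1 the lowest, as for 7 of the 10 lipid genes (Lpl, Lipa, Pltp, Abca1, Abcg1, Apoe and Nr1h3) and 11.3% of the tested genes. Axl, a receptor for apoptotic cells, was at 55.4, 45.0, 29.5 and 46.9 CPM in control replicates 1 and 2 and EGCG replicates 1 and 2. Of the 8 monocyte markers, 6 were below 0 (median log2 fold change of -0.10), and neither tool called any. Both EGCG libraries were below both control libraries for Csf1r, F13a1 and Fn1, as for 21.2% of the tested genes. At an unadjusted p under 0.05 in edgeR, 2 of the 8 were lower, beside 7.02%. Fn1, the fibronectin gene, was at 490.3 and 303.6 CPM in the control libraries and 217.8 and 263.0 CPM in the EGCG libraries. In 4 of the 8, control replicate 1 was the highest library and EGCG replicate 1 the lowest. The summed level was 2015 and 1831 CPM in control and 1676 and 1794 CPM with EGCG.
Of the neutrophil markers, 8 of 11 were above 0 (median 0.13) and none called by either tool, although S100a8, an alarmin gene, was higher at an unadjusted p of 0.00657 (log2 fold change of 0.38, adjusted p of 0.228 by edgeR). Their sum was lowest in control replicate 1 (62125 CPM) and highest in EGCG replicate 1 (82596 CPM), with 73637 CPM in control replicate 2 and 73388 CPM in EGCG replicate 2. Most of it was S100a8 and S100a9, without which the sums were 25209, 27181, 28090 and 26904 CPM in control replicates 1 and 2 and EGCG replicates 1 and 2. Of the 11 markers, 4 were lowest in control replicate 1 and highest in EGCG replicate 1. The part of these 3 lists in the values of the lipid genes was not tested.

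The other genes of lipid handling were given by 4 lists with 64 genes, of which 54 could be tested. By edgeR 1 of the 54 was called lower and none higher, and at an unadjusted p under 0.05 there were 8 lower and 2 higher genes. Over all tested genes the called shares were 0.136% and 0.0136%, and the unadjusted ones 7.02% and 5.22%. Their median log2 fold change was -0.07. DESeq2 called none in either direction.
Of the 14 tested lipoprotein and scavenger receptors, 12 were below 0, with a median log2 fold change of -0.19. Lrp1, which encodes a large endocytic receptor for ApoE-containing lipoproteins and for protease complexes, fell from 326.4 and 224.2 CPM in the control libraries to 153.1 and 175.5 CPM in the EGCG libraries. Both EGCG libraries were below both control libraries, although control replicate 1 stood well above control replicate 2. The log2 fold change of Lrp1 was -0.75 (standard error 0.13, adjusted p of 0.0427 by edgeR). With the length correction it was -0.56 (adjusted p of 0.0666), and it was not called with upper-quartile scaling (0.0644), by DESeq2 (0.275) or by edgeR's robust fit (0.313). Without control replicate 1 it was -0.44, and without control replicate 2 it was -0.99. The log2 fold change was -0.34 for Slc27a1 (adjusted p of 0.361), a fatty acid transporter, -0.33 for Cxcl16 (0.338), a scavenger receptor and chemokine, and -0.26 for Olr1 (0.343), the receptor LOX-1, none of which passed edgeR's test after adjustment. Cd68, a macrophage lysosomal glycoprotein and the most abundant of these genes per length, was level at 184.6 ± 1.02 CPM (SD, n = 2) in control and 183.0 ± 22.1 CPM (SD, n = 2) with EGCG.
Of the 9 tested lipase partners and intracellular lipases, 4 were below 0 and 5 above, with a median log2 fold change of 0.03. Gpihbp1, whose product holds lipoprotein lipase on the capillary wall, had 0 reads in all 4 libraries, and Angptl4, which encodes an inhibitor of that lipase, had 4 to 12 reads. Abhd5, the coactivator of adipose triglyceride lipase, had a log2 fold change of 0.17 (adjusted p of 0.398 by edgeR), with both EGCG libraries above both control libraries. Pla2g7, the lipoprotein-associated phospholipase, was the most abundant per length, at 511.5 ± 55.7 CPM (SD, n = 2) in control and 509.1 ± 18.3 CPM (SD, n = 2) with EGCG.
Of the 16 genes of cholesterol storage and intracellular transport, 9 were below 0 and 7 above, with a median of -0.02. Osbpl8, an oxysterol-binding protein gene, had a log2 fold change of -0.19 (adjusted p of 0.314 by edgeR), and Plin2, which coats lipid droplets and was the most abundant per length, had -0.10 (0.658).
Of the 15 tested genes of the list of nuclear receptors and LXR targets, 10 were below 0, with a median of -0.12. Srebf1, which encodes the lipogenic factor SREBP-1, had -0.17 (adjusted p of 0.408) and Tmem135 0.32 (adjusted p of 0.279). Nr1h2, the gene of LXRβ and the most abundant of this list per length, was at 180.0 ± 1.81 CPM (SD, n = 2) in control and 191.9 ± 4.55 CPM (SD, n = 2) with EGCG.

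**Figure D4:**
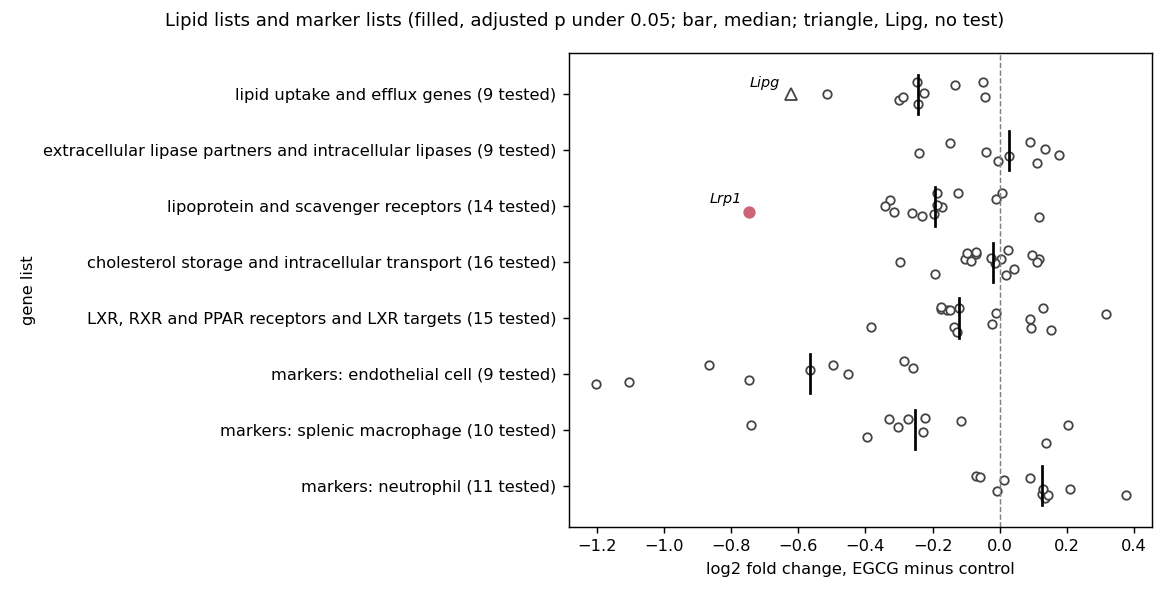
Log2 fold change (EGCG minus control) of every tested gene in the lipid lists and in 3 marker lists, with filled points for an adjusted p under 0.05 and bars for the list medians. Lipg, for whose fall the list was chosen, is drawn as a triangle outside its list's median and without a test, Lrp1 is the single filled point, and the endothelial markers have the lowest median at -0.56.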

How the data were processed

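Deposited RNA-seq counts of 2 control and 2 EGCG libraries were used. The authors aligned reads to GRCm38 with STAR 2.6.0c, counted them per gene with featureCounts 1.6.2 on Ensembl release 91 without strand, and deposited whole-number counts that were not normalized. The file held 53465 genes, 0 lines without a gene and 0 columns of other samples.

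Genes passing edgeR 4.0.16 filterByExpr (minimum count of 10) were scaled by TMM and tested with the legacy quasi-likelihood fit, without a block, over all 4 libraries, and p values were adjusted over 14682 genes. Standard errors are the log2 fold change divided by the square root of F. Exonic lengths and positions came from GENCODE M21 (GRCm38). Profile likeness used log2 CPM with a prior count of 2. The fit and the length correction (loess offset, span of 0.4) were tested on simulated data. DESeq2 1.42.0 was an alternative, R 4.3.3 and Python 3.11.15 ran the scripts, and figures were drawn with matplotlib 3.10.9.

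The genes of interest and the lists were chosen with earlier results of these data known. Named were all 10 genes and, from each lipid list, genes with an adjusted p under 0.05, up to 4 with the smallest unadjusted p under 0.05 and at least 10 counts in every library, and the most abundant per length, and the 5 genes with profiles closest to Lipg. A gene named by this rule is not reported here. With 2 libraries against 2, an exact permutation test cannot give a two-sided p under 0.333.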

Additional observations from a re-analysis of the deposited data

How the results depend on the processing

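Without a filter on low counts 0 genes were called lower or higher over all genes. None of the other lipid genes was called then, with a log2 fold change of -0.74 for Lrp1. The cause was not tested. The count of lower genes (20) became 135 with library size only, 9 with upper-quartile scaling, 49 with the robust fit, 50 with DESeq2 and 3 with the length correction. The count of higher genes (2) became 16 with library size only, 14 with the robust fit or DESeq2, 7 with a mean of at least 10 counts and 6 with the newer fit or the replicate block. Of the other lipid genes, 2 were lower with library size only and 0 with upper-quartile scaling, the robust fit, DESeq2 or the length correction. The length correction moved the log2 fold change of Lipa to 0.0197. With a library left out, 72 to 235 genes were lower and 5 to 119 higher, 1 to 4 of the 10 genes lower (0 to 3 of the 9 other than Lipg, which chose the list), and 1 to 3 of the other lipid genes lower and 0 to 1 higher. Log2 fold changes then ran from -0.13 to 0.0297 for Lipa, -0.61 to 0.0514 for Pltp, -0.53 to 0.12 for Cd36, -0.28 to 0.0046 for Abcg1, -0.25 to 0.16 for Apoe and -0.50 to 0.0303 for Nr1h3. The lone library of a group is then assumed to vary like the others. The count over the 10 genes includes Lipg, whose lower counts chose the list, so its part in that count is no evidence. Only the count over the 9 others bears on the list. Replicate numbers do not pair the libraries by any source used here (correlation of same-numbered deviations 0.03 across genes), and the replicate block changed no call among the 9 genes other than Lipg.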
